A study of Homo sapiens with 60 samples.

Results

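The genes described here are 49 genes of DNA replication, from the licensing of origins to the polymerases, the sliding clamp and the supply of nucleotides. They were taken from a list of symbols and matched to Ensembl identifiers, and all 49 were found among the 58395 identifiers of the count table and all 49 had enough counts to be tested. They were measured by RNA sequencing of poly(A) RNA in HEK293A, an adherent line of human embryonic kidney cells, in which TDP1 had been knocked out with CRISPR/Cas9 guides against constitutive coding exons. 3 knockout clones, C6, F7 and G6, each received 5 treatments with 4 libraries per group, labelled as biological replicates, which gave 15 groups and 60 libraries. The treatments lasted 5 to 5.5 hours and were 100 nM topotecan with 5 µM OL9-119, 100 nM topotecan with 0.1% DMSO, 5 µM OL9-119 in 0.1% DMSO, 0.1% DMSO, the solvent alone, and no treatment; the label of the combination names no DMSO. Every library carries the knockout, so no comparison below is with cells that have TDP1, and wild-type cells were not analysed here. Each clone stands for a single knockout event, so a difference between clones cannot be told apart from other differences between the lines. TDP1 transcripts were still counted, at 25.6 to 41.1 counts-per-million (CPM) in C6, 17.9 to 31.9 CPM in F7 and 22.1 to 38.2 CPM in G6 (20 libraries each), and such counts do not show whether the edited transcript is functional.

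Topotecan stabilises the complex in which topoisomerase I is joined to nicked DNA, and TDP1 is an enzyme that removes the trapped protein from the DNA end. A replication fork that meets such a complex can break, which is why topotecan acts mostly on cells in S phase. In G1 the origin recognition complex, CDC6 and CDT1 load the MCM2-7 ring onto DNA, a step called licensing. At the start of S phase CDC7 with DBF4 activates the ring, CDC45 and the GINS complex join it to form the CMG helicase, and DNA polymerase alpha with primase starts each new strand. Many of these genes are transcribed in a wave at the G1/S boundary under E2F factors.

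The libraries held 4623685 to 20932497 counts (4.62 to 20.9 M, median 11.4 M), and the lowest count of any of the 49 genes in any library was 83. The cells expressed VIM, KRT8, KRT18 and NEFL in every library (lowest 188 CPM, for NEFL), while NEFM and PAX2 were low, with PAX2 at 0 in 1 library. Of the markers of blood cells, fibroblasts and hepatocytes examined, PTPRC was at 0 in 53 libraries, HBB in 55 and DCN in 39, ALB, APOA1 and CD3E did not exceed 1.23 CPM, LUM had a median of 1.58 CPM, and COL1A1 was at 8.38 to 43 CPM. In 14 libraries fewer than 20000 genes were detected at a common depth of 4.5 M counts: 10 of these were from C6 and 4 from G6. They were C6 DMSO replicates 1 and 2, C6 OL9-119 and C6 topotecan replicates 1 and 4, C6 combination replicates 1, 2 and 4, untreated C6 replicate 2, and replicate 1 of G6 DMSO, OL9-119, combination and untreated. Counts without these 14 libraries stand beside the main ones, except in comparisons with the combination. There C6 keeps a single combination library, replicate 3, so no count is given for that fit.

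Per kilobase of exon, the level in DMSO spanned a wide range among the 49 genes. PCNA, the sliding clamp, was highest at 267 ± 59.8 CPM per kb (SD, n = 12 libraries). It was followed by RRM1, the large subunit of ribonucleotide reductase, at 121.4 ± 31.2 CPM per kb, and MCM3 at 114 ± 14.3 CPM per kb, and RRM1 and MCM3 lay within 1 SD of each other. POLE2, a subunit of polymerase epsilon, was lowest at 6.11 ± 1.77 CPM per kb, next to GINS3 at 6.51 ± 0.614 and ORC4 at 7.65 ± 1.21 CPM per kb.

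With topotecan alone much of the set was higher. Against DMSO, 23 of the 49 genes rose and 3 fell at an adjusted p under 0.05 (edgeR quasi-likelihood test, 12 against 12 libraries, Benjamini-Hochberg adjustment over all 18985 genes tested). Among all genes tested the shares were 5.99% higher and 9.35% lower. The median log2 change of the 49 genes was 0.15, beside 0.023 over all genes. The genes that rose did so by modest amounts, up to 0.56 on the log2 scale, and those that fell were POLA1, PRIM2 and ORC4. The other 23 genes did not pass the test and had log2 changes no larger than 0.28 in size. In bulk RNA, a change in the share of cells in a phase of the cycle and a change in RNA per cell cannot be told apart. Without the 14 libraries of low detection 27 genes were called higher and 5 lower, all 26 original calls among them. ORC2 (log2 change -0.18) and GINS1 (-0.14) were the added lower calls, and GMNN (0.21), POLD3 (0.20), SLBP (0.14) and POLA2 (0.11) the added higher ones. For 7 genes, CDC6, FEN1, MCM3, MCM4, ORC1, RFC2 and UNG, all 4 topotecan libraries lay above all 4 DMSO libraries in each of the 3 clones, which held for 0.627% of all genes tested. For POLA1 and PRIM2 all topotecan libraries lay below all DMSO libraries in each clone, which held for 2.20% of all genes. The plot of changes by role shows the members grouped by function.

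**Figure D1:**
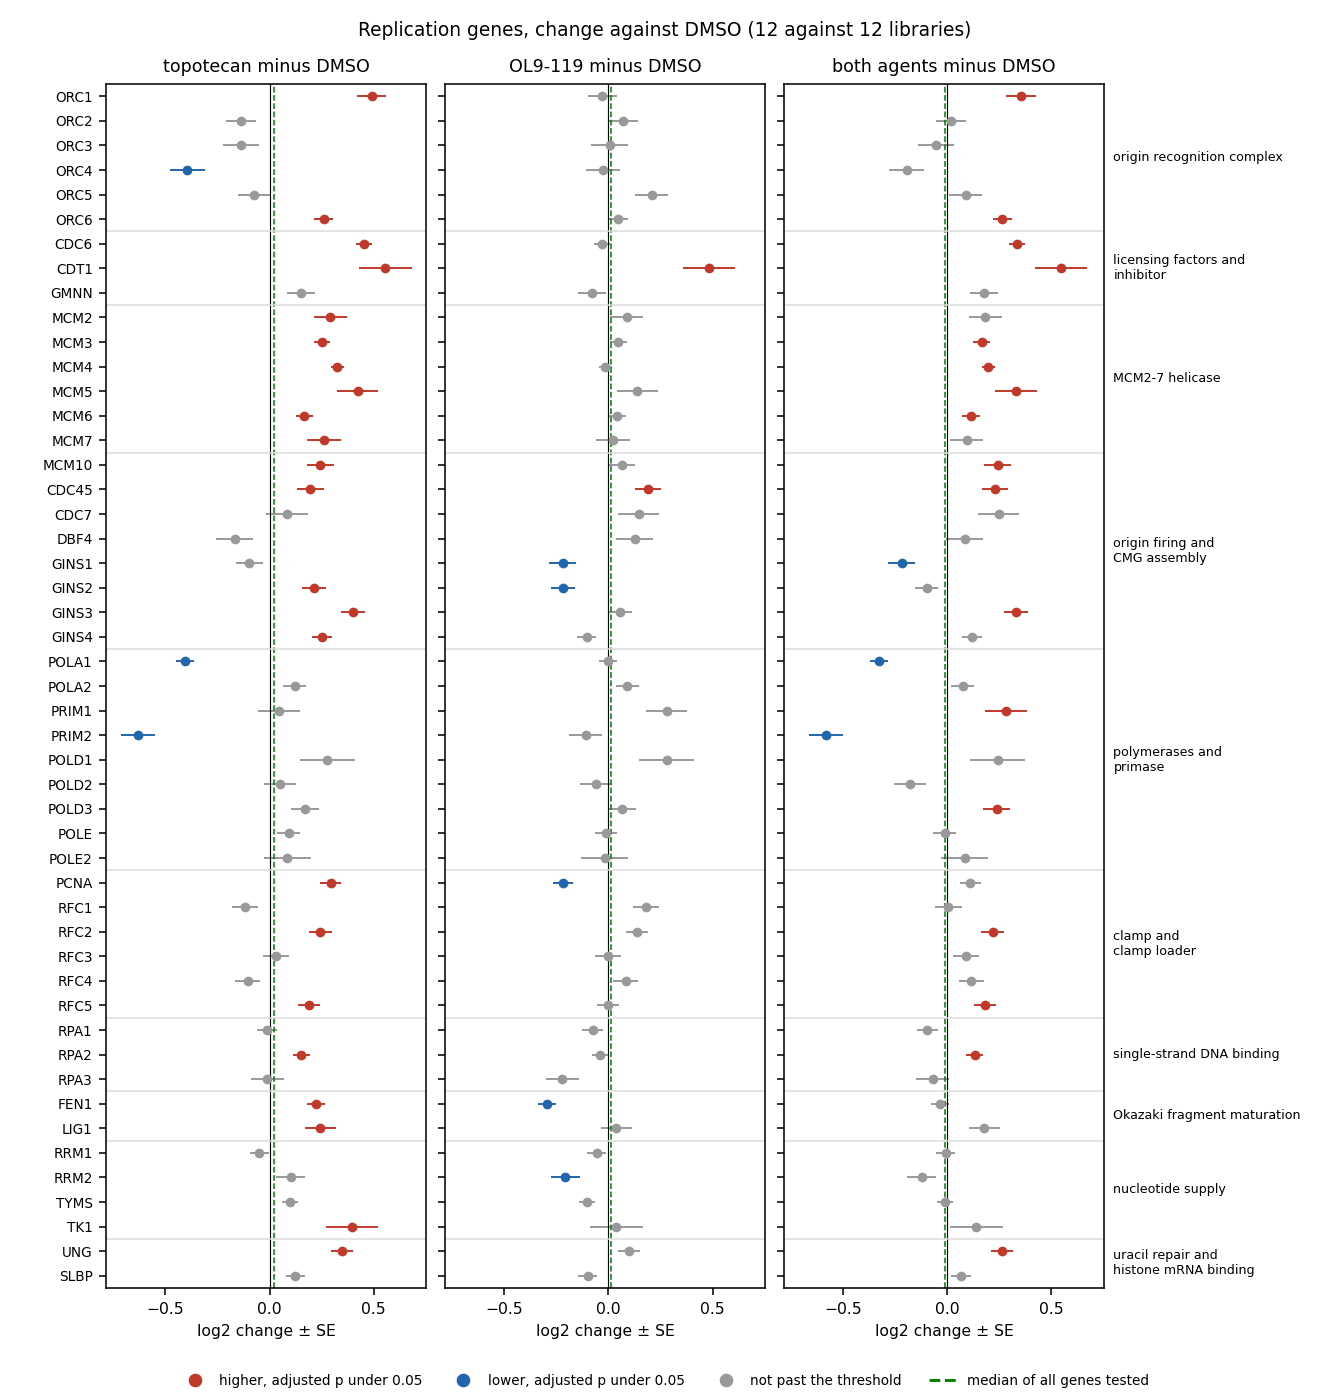
Log2 change against DMSO (x axis, points with SE) for each of the 49 genes (rows, grouped by role) with topotecan, OL9-119 and both agents, from 12 against 12 libraries; red and blue points passed an adjusted p of 0.05 and the dashed green line is the median of all genes tested. All 6 genes of the MCM2-7 ring are red in the topotecan panel, where POLA1 and PRIM2 stand farthest to the left, while OL9-119 has 2 red and 5 blue points.

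The licensing factors CDC6 and CDT1 rose with topotecan. CDC6, the ATPase that joins the origin recognition complex to load the MCM ring (GRCh38 chromosome 17, 40287633 to 40304657), stood at 247, 242, 252 and 263 CPM in the topotecan libraries of C6, against 181, 185, 169 and 185 CPM in its DMSO libraries. In F7 it was at 190, 180, 196 and 182 CPM with topotecan and at 147, 139, 139 and 143 CPM in DMSO. In G6 it was at 221, 217, 192 and 203 CPM with topotecan and at 136, 152, 167 and 140 CPM in DMSO. No topotecan library overlapped a DMSO library of its clone, and the log2 change was 0.46 ± 0.039 (SE, adjusted p = 4.25e-14), with 0.48, 0.40 and 0.49 in C6, F7 and G6.

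CDT1, the partner of CDC6 in loading the ring, had the largest rise of the set at 0.56 ± 0.13 on the log2 scale (adjusted p = 0.000747), but its libraries were scattered. With topotecan it ranged over 66.1 to 132 CPM (median 106), and in DMSO over 40.4 to 108 CPM (median 76.2). In DMSO the low CDT1 values of C6 were those of replicates 1 and 2, at 50.3 and 40.4 CPM against 89.0 and 57.8 CPM in replicates 3 and 4, and the low value of G6 was that of replicate 1 at 45.2 CPM, all 3 of them libraries of low detection. Without the low-detection libraries its log2 change was 0.50 (adjusted p = 1.03e-05). GMNN, which encodes geminin, the inhibitor of CDT1, had a log2 change of 0.15 ± 0.067 and did not pass the test (adjusted p = 0.13), whereas without the low-detection libraries it was called higher at 0.21 (adjusted p = 0.00688).

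Within the origin recognition complex the subunits moved apart. ORC1, the subunit whose protein comes and goes with the cell cycle in human cells, was at 72.6, 67.5, 66.8 and 69.8 CPM in C6 with topotecan and at 41.6, 62.6, 47.4 and 49.3 CPM in C6 DMSO. Over the 12 libraries it had a median of 62.7 CPM with topotecan and 41.8 CPM in DMSO, a log2 change of 0.49 ± 0.071 (adjusted p = 2.72e-07). ORC6 rose by 0.26 ± 0.046 on the log2 scale (adjusted p = 1.72e-05). ORC4 fell by 0.40 ± 0.084 on the log2 scale (adjusted p = 0.000292), and ORC2, ORC3 and ORC5 had log2 changes of -0.14, -0.14 and -0.07 that did not pass the test. 430 exonic bases of ORC4, 4.82% of its exons, lie under ACVR2A on the opposite strand, and whether strand was used in counting is not given in the sources used here.

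All 6 genes of the MCM2-7 ring, the motor of the replicative helicase, rose with topotecan, with a median log2 change of 0.28. MCM4 was at 483, 463, 479 and 491 CPM in C6 with topotecan and at 365, 385, 394 and 385 CPM in C6 DMSO. In F7 it was at 361, 378, 389 and 381 CPM with topotecan and at 302, 279, 310 and 297 CPM in DMSO, and in G6 at 405, 423, 413 and 408 CPM with topotecan and at 335, 343, 349 and 311 CPM in DMSO. The groups did not overlap in any clone and the change was even, at 0.33, 0.34 and 0.30 on the log2 scale in C6, F7 and G6 (0.33 ± 0.031 over the 3 clones, adjusted p = 1.16e-12). MCM5 rose by 0.42 ± 0.099, MCM2 by 0.29 ± 0.080, MCM7 by 0.26 ± 0.081, MCM3 by 0.25 ± 0.040 and MCM6 by 0.17 ± 0.042 on the log2 scale. MCM5 varied widely within C6, where it was at 150, 175, 171 and 112 CPM with topotecan and at 85.1, 85.54, 132.2 and 125.6 CPM in DMSO, groups that overlapped.

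Of the 8 genes of origin firing and CMG assembly 5 rose and none fell. GINS3, a GINS subunit, was at 40.6, 48.9, 42.7 and 56.2 CPM with topotecan and at 36.01, 41.03, 33.01 and 33.04 CPM in DMSO in C6. In F7 the values were 36.7, 39.8, 38.2 and 38.6 CPM with topotecan and 33.0, 31.1, 29.7 and 28.7 CPM in DMSO. In G6 they were 46.8, 47.5, 43.1 and 46.9 CPM with topotecan and 32.4, 33.3, 33.7 and 33.9 CPM in DMSO, so that only C6 had overlapping groups. The log2 change of GINS3 was 0.40 ± 0.057 (adjusted p = 1.47e-07). GINS4 rose by 0.25 ± 0.047, MCM10, a factor that activates the loaded helicase, by 0.24 ± 0.063, GINS2 by 0.21 ± 0.056 and CDC45 by 0.20 ± 0.063 on the log2 scale. The CDC45 call (adjusted p = 0.0222) was lost with no low-count filter and in 3 of the 4 fits that left out a replicate number. GINS1 had a log2 change of -0.10 and did not pass the test, so the subunits of this 4-protein complex were not all called in the same direction. The kinase genes CDC7 and DBF4 had log2 changes of 0.08 and -0.17 and did not pass the test.

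The promoters of the genes with the smallest p-values and of the MCM ring were read for sites of the factors that drive G1/S transcription. The sequences are the 200 bases before the RefSeq start (GRCh38.p14), 5′ to 3′ on the strand of the gene. Capitals mark exact matches on either strand to the E2F site forms TTTCCCGC, TTTCGCGC, TTTGCCGC and TTTGGCGC or to the CCAAT box, which NF-Y binds. They are shown because CDC6, GINS3 and the MCM genes rose with topotecan while POLA1 and PRIM2 fell.
CDC6: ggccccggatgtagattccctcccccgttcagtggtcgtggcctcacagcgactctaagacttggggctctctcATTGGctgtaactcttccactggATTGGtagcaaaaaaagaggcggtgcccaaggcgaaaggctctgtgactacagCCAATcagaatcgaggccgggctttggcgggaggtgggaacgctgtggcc
GINS3: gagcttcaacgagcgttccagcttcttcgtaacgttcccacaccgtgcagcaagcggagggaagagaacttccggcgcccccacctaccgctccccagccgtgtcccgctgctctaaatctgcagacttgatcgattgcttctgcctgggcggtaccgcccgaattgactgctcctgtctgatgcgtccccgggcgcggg
MCM2: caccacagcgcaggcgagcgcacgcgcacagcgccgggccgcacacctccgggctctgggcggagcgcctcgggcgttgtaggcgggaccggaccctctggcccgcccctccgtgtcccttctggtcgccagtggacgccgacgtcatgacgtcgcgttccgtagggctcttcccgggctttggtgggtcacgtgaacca
MCM3: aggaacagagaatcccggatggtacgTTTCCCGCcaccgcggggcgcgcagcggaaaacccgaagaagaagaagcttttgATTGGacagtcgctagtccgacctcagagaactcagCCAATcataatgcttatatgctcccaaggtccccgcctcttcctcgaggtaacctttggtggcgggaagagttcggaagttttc
MCM6: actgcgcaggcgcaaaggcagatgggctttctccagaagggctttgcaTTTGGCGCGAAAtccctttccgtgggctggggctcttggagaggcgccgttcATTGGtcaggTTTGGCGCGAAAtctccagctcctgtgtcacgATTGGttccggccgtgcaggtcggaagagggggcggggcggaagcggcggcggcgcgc
MCM7: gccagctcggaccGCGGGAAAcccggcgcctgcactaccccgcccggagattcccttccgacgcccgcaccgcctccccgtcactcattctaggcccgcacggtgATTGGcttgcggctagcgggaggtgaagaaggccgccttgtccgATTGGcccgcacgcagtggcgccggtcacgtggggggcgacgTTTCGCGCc
POLA1: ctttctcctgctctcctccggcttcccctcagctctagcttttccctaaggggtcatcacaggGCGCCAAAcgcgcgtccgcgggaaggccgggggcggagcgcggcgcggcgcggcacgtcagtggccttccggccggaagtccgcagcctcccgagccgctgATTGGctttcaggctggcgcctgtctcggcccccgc
PRIM2: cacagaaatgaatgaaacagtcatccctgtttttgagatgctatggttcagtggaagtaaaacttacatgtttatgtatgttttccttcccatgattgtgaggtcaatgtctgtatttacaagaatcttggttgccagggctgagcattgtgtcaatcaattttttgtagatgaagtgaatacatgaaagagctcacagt

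The CDC6 stretch lies at chr17:40287679-40287878 on the plus strand, that of GINS3 at chr16:58392271-58392470 (plus) and that of MCM2 at chr3:127598211-127598410 (plus). That of MCM3 lies at chr6:52284743-52284942 (minus), MCM6 at chr2:135876444-135876643 (minus), MCM7 at chr7:100101398-100101597 (minus), POLA1 at chrX:24693718-24693917 (plus) and PRIM2 at chr6:57314605-57314804 (plus). In MCM6 the run TTTGGCGCGAAA occurs at 2 places, and each holds TTTGGCGC on the strand of the gene overlapping TTTCGCGC on the other strand. CDC6 has 3 CCAAT boxes in the stretch shown and its E2F form 8 bases after the start, outside it. MCM2 likewise has its E2F forms just after the start, that of GINS3 crosses the start, and the PRIM2 stretch holds no match to these letters. ORC1 and UNG, which rose with the next smallest p-values among members with a sequence, are not printed. Their stretches of 200 bases hold 0 E2F matches, with 1 CCAAT box in ORC1 and 0 in UNG.

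Over the whole RefSeq windows, from 250 bases before the start to 50 after it, 43 of the 49 genes had a sequence. An E2F form was found in 18 of these 43 windows (41.9%), beside 3.33% of 27305 windows of all genes. It was found in 10 of the 19 windows of genes that rose with topotecan, in 1 of the 3 of genes that fell, which was POLA1, and in 7 of the 21 of genes not called. A CCAAT box was found in 53.5% of the 43 windows and 35.7% of all windows. The form TTTGAA of the CHR element, which is known from promoters of mitotic genes, was found in 2 of the 43 windows (4.65%) and in 15.4% of all windows. Windows that share a motif are described here with no test, and RPA2, RPA3, MCM4, MCM5, POLD3 and GINS4 are named only.

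Of the 9 polymerase and primase genes, 2 fell with topotecan and 0 passed the test as higher. POLA1, the catalytic subunit of polymerase alpha (chromosome X, 24693919 to 24996986), was at 385, 360, 357 and 401 CPM in C6 with topotecan and at 468, 473, 447 and 467 CPM in C6 DMSO. In F7 it was at 225, 224, 222 and 202 CPM with topotecan and at 304, 278, 275 and 295 CPM in DMSO. In G6 it was at 257, 269, 267 and 235 CPM with topotecan and at 387, 374, 400 and 316 CPM in DMSO. The topotecan libraries were the lower ones throughout, and POLA1 fell by 0.41 ± 0.043 on the log2 scale (adjusted p = 4.21e-11).

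PRIM2, the large subunit of primase, which works in one complex with POLA1, was a less abundant transcript. It was at 32.1, 24.3, 27.3 and 33.2 CPM in C6 with topotecan and at 50.1, 49.9, 37.2 and 52.9 CPM in C6 DMSO. In F7 it was at 23.37, 23.6, 25.97 and 24.24 CPM with topotecan and at 36.04, 31.71, 33.61 and 37.56 CPM in DMSO, and in G6 at 23.9, 20.5, 24.9 and 22.7 CPM with topotecan and at 37.73, 38.97, 37.04 and 32.94 CPM in DMSO. With a log2 change of -0.63 ± 0.082 (adjusted p = 1.63e-08) it had the largest fall of the 49 genes. The other subunits of the same complex, POLA2 and PRIM1, had log2 changes of 0.12 ± 0.055 and 0.04 ± 0.100 and did not pass the test. POLD1, POLD2 and POLD3 of polymerase delta and POLE and POLE2 of polymerase epsilon had log2 changes of 0.05 to 0.28 that did not pass it either. These calls depended on the settings: POLA2 (0.11, adjusted p = 0.0237) and POLD3 (0.20, adjusted p = 0.0114) passed as higher without the low-detection libraries, and POLD1 (0.30, adjusted p = 0.000385) and POLD3 (0.20, adjusted p = 0.0434) passed with no low-count filter.

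Of the 3 genes that fell, PRIM2 and POLA1 span 332 and 303 kb in the GENCODE annotation and are the longest of the 49 genes. ORC4 spans 91.2 kb, and the longer POLD3, RFC3 and GINS3 were not called lower. Across the 49 genes the Spearman correlation between gene span and the log2 change with topotecan was -0.53, and across 14685 protein-coding genes tested it was -0.49; genes are not independent replicates, so these values are descriptions. Among all coding genes the median log2 change was 0.12 in those under 10 kb, 0.09 from 10 to 30 kb, -0.01 from 30 to 100 kb, -0.16 from 100 to 200 kb and -0.36 over 200 kb. The members had medians of 0.26, 0.23, -0.01, 0.17 and -0.52 in the same classes, with 5, 20, 19, 3 and 2 genes. POLA1 and PRIM2 changed in the same direction as the 56.8% of coding genes over 200 kb that were called lower. In the class of ORC4, 30 to 100 kb, 7.81% of coding genes were called lower. The part of gene length in these falls was not tested. The annotated span depends on which transcripts are counted in: GINS3 spans 111 kb in GENCODE and 13.7 kb in RefSeq, POLD3 175 and 76.8 kb, and with the RefSeq spans the correlation was -0.59.

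**Figure D2:**
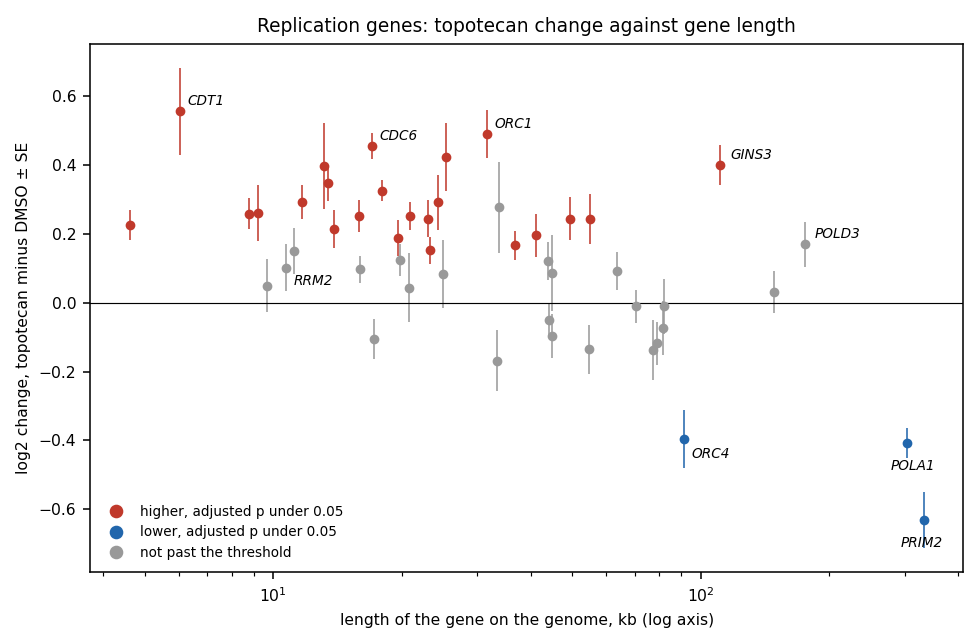
Log2 change with topotecan minus DMSO (y axis, with SE, 12 against 12 libraries) against the length of the gene in kb (log x axis, GENCODE) for the 49 genes; red points were called higher and blue points lower. POLA1 and PRIM2 at 303 and 332 kb are the lowest points with ORC4, and GINS3 at 111 kb stands above the others of its length.

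At the fork, PCNA and subunits of its loader rose. PCNA was at 368, 375, 390 and 436 CPM with topotecan in C6 and at 315, 323, 287 and 348 CPM in DMSO. In F7 it was at 483, 454, 482 and 458 CPM with topotecan and at 377, 333, 368 and 376 CPM in DMSO, and in G6 at 623, 569.9, 527 and 580 CPM with topotecan and at 569.9, 509, 496 and 418 CPM in DMSO. The groups overlapped in G6 and not in C6 or F7, and PCNA rose by 0.29 ± 0.049 on the log2 scale (adjusted p = 6.38e-06). RFC2, a subunit of the clamp loader, rose by 0.24 ± 0.054 and RFC5 by 0.19 ± 0.053 on the log2 scale, whereas RFC1, the large subunit, RFC3 and RFC4 had log2 changes of -0.12, 0.03 and -0.11 that did not pass the test. Of replication protein A, which coats single-stranded DNA, RPA2 rose by 0.15 ± 0.040, and RPA1 and RPA3 both had log2 changes of -0.01 and did not pass it. Both genes of Okazaki fragment maturation rose, the flap nuclease FEN1 by 0.23 ± 0.043 (adjusted p = 5.19e-05) and the ligase LIG1 by 0.24 ± 0.074 (adjusted p = 0.0156).

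Of the nucleotide supply, TK1, thymidine kinase, rose by 0.40 ± 0.13 (adjusted p = 0.0219). The call was lost without 1 library: without G6 DMSO replicate 1, in which TK1 was at 53.8 CPM against 79.6 to 120.5 CPM in the other G6 DMSO libraries, the log2 change was 0.35 and the adjusted p 0.0512. Without all 14 low-detection libraries, that one among them, TK1 was called, at a log2 change of 0.34 (adjusted p = 0.000565). RRM1, RRM2 and the thymidylate synthase TYMS had log2 changes of -0.05, 0.10 and 0.10 that did not pass the test. UNG, the glycosylase that removes uracil from DNA, rose by 0.35 ± 0.053 (adjusted p = 9.36e-07). It was at 77.9, 84.7, 84.1 and 88.6 CPM in F7 with topotecan and at 65.2, 65.4, 64.1 and 66.7 CPM in F7 DMSO, and C6 and G6 likewise had no overlap. SLBP, which binds histone mRNA, had a log2 change of 0.12 ± 0.047 and did not pass the test (adjusted p = 0.0689), but it was called higher without the low-detection libraries (0.14, adjusted p = 0.0316) and by DESeq2 (0.13, adjusted p = 0.0463).

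**Figure D3:**
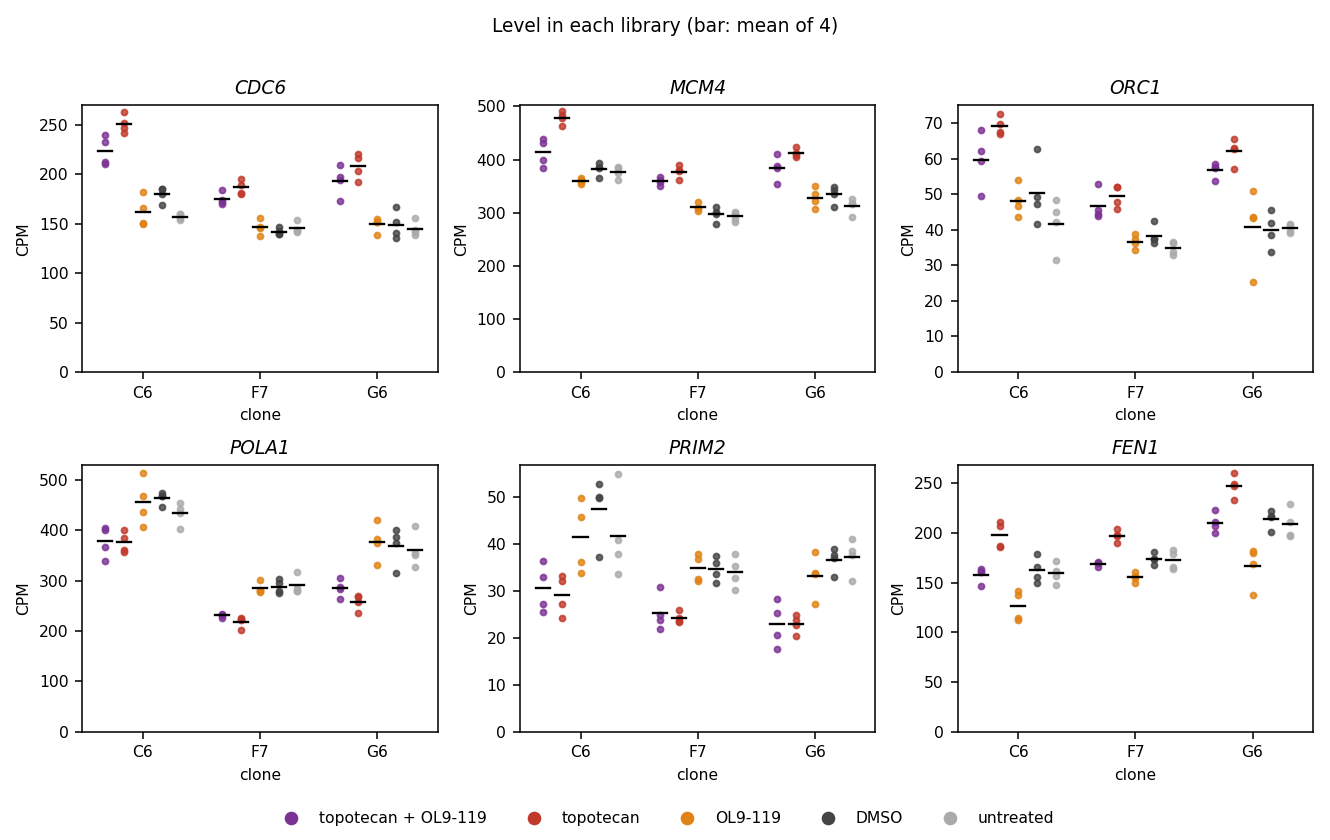
CPM (y axis, from 0) of 6 genes in every library by clone (x axis) and treatment (colours, with the combination, topotecan, OL9-119, DMSO and untreated from left to right); each point is 1 library and each bar the mean of 4. CDC6, MCM4 and ORC1 are higher with topotecan than in DMSO, POLA1 and PRIM2 are lower, and FEN1 is higher with topotecan and lower with OL9-119.

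OL9-119 alone, a compound the labels name only by its code, changed few of the 49 genes. 2 rose, beside 4.47% of all genes tested, and 5 fell, beside 5.00%, and the median log2 change was 0.005 against 0.014 over all genes. Without the low-detection libraries 2 were higher and 7 lower, with POLD1 as an added higher call and RPA3 and TYMS as added lower ones. The genes that fell were FEN1, PCNA, GINS2, GINS1 and RRM2, of which FEN1, PCNA and GINS2 rose with topotecan in the comparison with the same DMSO libraries. FEN1 was at 112, 138, 142 and 115 CPM in C6 with OL9-119 and at 150, 156, 166 and 180 CPM in C6 DMSO. In F7 it was at 161, 155, 150 and 157 CPM with OL9-119 and at 174, 181, 174 and 168 CPM in DMSO, and in G6 at 138, 169, 180 and 182 CPM with OL9-119 and at 201, 222, 218 and 216 CPM in DMSO. No groups overlapped, and FEN1 fell by 0.29 ± 0.043 on the log2 scale (adjusted p = 7.24e-07). 49 exonic bases of FEN1, 1.98% of its exons, are shared on the same strand with FADS2, whose counts were 36.6% of those of FEN1. PCNA was at 279, 234, 246 and 313 CPM in C6 with OL9-119, against the DMSO values given above, and at 319 to 375 CPM in F7 and 367 to 419 CPM in G6. The groups overlapped in each clone, in G6 by less than 1 CPM. PCNA fell by 0.22 ± 0.049 (adjusted p = 0.00153), GINS2 by 0.22 ± 0.057 (adjusted p = 0.00649) and GINS1 by 0.22 ± 0.064 (adjusted p = 0.0167). The GINS2 and GINS1 calls were each lost with no low-count filter and in 2 of the 4 fits that left out a replicate number. Those of FEN1 and PCNA were kept in every fit.

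CDT1 rose with OL9-119 by 0.48 ± 0.13 on the log2 scale (adjusted p = 0.00674), with a range of 64.3 to 133 CPM (median 103.7) against 40.4 to 108 CPM (median 76.2) in DMSO. The change was 0.76, 0.19 and 0.50 in C6, F7 and G6, and 0.47 over the libraries without low detection (adjusted p = 8.07e-05). CDC45 rose by 0.19 ± 0.062 (adjusted p = 0.0436) and RRM2 fell by 0.21 ± 0.069 (adjusted p = 0.0454), and both calls lay at the edge of the threshold. 20.2% of the exonic bases of RRM2 are shared on the same strand with ENSG00000284681, whose counts were 2.85% of those of RRM2. The CDC45 call was lost on leaving out any of 13 single libraries, from DMSO (C6 replicates 1 and 2, F7 replicates 1, 3 and 4, G6 replicates 1 and 2) and from OL9-119 (C6 replicates 2 and 3, F7 replicates 1 and 3, G6 replicates 1 and 4), with adjusted p-values of up to 0.0902. It was lost also without the low-detection libraries, at a log2 change of 0.11 (adjusted p = 0.159). The RRM2 call was lost on leaving out any of 23 single libraries, with the highest adjusted p of 0.113 without G6 OL9-119 replicate 4. These were from DMSO (C6 replicates 1, 2 and 4, F7 replicates 1, 3 and 4, G6 replicates 1, 2 and 3), from OL9-119 (C6 replicates 2 and 3, all 4 of F7, G6 replicates 3 and 4), from topotecan (replicate 3 of F7 and of G6) and untreated (replicate 1 of C6 and of F7, replicates 2 and 3 of G6). The count of 2 higher calls became 1 without C6 DMSO replicate 1, F7 DMSO replicate 1 or 3, F7 OL9-119 replicate 3 or G6 OL9-119 replicate 1. It became 4 without untreated C6 replicate 2, C6 OL9-119 replicate 3, C6 combination replicate 3 or G6 combination replicate 1. The MCM2-7 genes had log2 changes of -0.02 to 0.14 and the origin recognition genes of -0.03 to 0.21, none past the test.

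With both agents, CDC6, CDT1, GINS3 and most MCM2-7 genes were higher than in DMSO and POLA1, PRIM2 and GINS1 were lower, in a comparison that shares its DMSO libraries with those above. 17 genes rose, beside 9.52% of all genes tested, and 3 fell, beside 11.7%, with a median log2 change of 0.11 against -0.01 over all genes. Without the low-detection libraries the C6 combination group was a single library, replicate 3. In that fit GMNN, MCM2, POLD1 and LIG1 had log2 changes of 0.19, 0.24, 0.29 and 0.20. CDC6 rose by 0.33 ± 0.039 (adjusted p = 7.5e-10), CDT1 by 0.55 ± 0.13, ORC1 by 0.35 ± 0.072, GINS3 by 0.33 ± 0.057, ORC6 by 0.26 ± 0.046, UNG by 0.26 ± 0.053 and MCM4 by 0.20 ± 0.031 on the log2 scale. 4 of the 6 MCM2-7 genes passed the test, with MCM2 and MCM7 at log2 changes of 0.18 and 0.09 that did not. GINS2 and GINS4 had log2 changes of -0.10 and 0.12 that did not pass it either. POLA1 fell by 0.33 ± 0.043 (adjusted p = 1.52e-08), PRIM2 by 0.58 ± 0.082 (adjusted p = 9.19e-08) and GINS1 by 0.22 ± 0.064 (adjusted p = 0.00837). FEN1 and PCNA, higher with topotecan alone and lower with OL9-119 alone, had log2 changes of -0.04 ± 0.043 and 0.11 ± 0.049 and did not pass the test. MCM6, PRIM1 and RPA2 were called higher at log2 changes of 0.11, 0.28 and 0.13, which were 0.10, 0.20 and 0.05 without the low-detection libraries. With no low-count filter the calls of MCM6 and RPA2 were lost, and that of RPA2 also in 1 of the 4 fits that left out a replicate number. MCM6 lost its call without C6 DMSO replicate 3, F7 DMSO replicate 2, 3 or 4 or G6 DMSO replicate 2 or 4. Its call was lost also without C6 combination replicate 4, with adjusted p-values of up to 0.0914 over these libraries. PRIM1, 33 exonic bases of which are shared on the same strand with the far more abundant NACA, lost its call without C6 DMSO replicate 3, F7 DMSO replicate 2, G6 DMSO replicate 4, C6 combination replicate 2 or 4 or G6 combination replicate 1, with adjusted p-values of up to 0.0777.

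The addition of OL9-119 to topotecan was compared directly, between the combination and topotecan alone. 1 gene was higher, beside 3.33% of all genes tested, and 6 were lower, beside 3.45%. GINS2 was lower, at 53.8, 48.8, 57.3 and 54.6 CPM in C6 with both agents against 53.4, 64.1, 66.0 and 74.7 CPM with topotecan. It was at 46.51, 50.11, 54.29 and 46.96 CPM in F7 with both agents against 68.5, 59.8, 66.0 and 64.8 CPM with topotecan, and in G6 at 45.04, 69.27, 62.54 and 60.68 CPM against 76.5, 71.9, 68.4 and 72.4 CPM. The groups were apart in F7 and overlapped in C6 and G6, with a log2 change of -0.31 ± 0.057 (adjusted p = 8.69e-05). FEN1 was lower by a log2 change of -0.26 ± 0.043 (adjusted p = 1.71e-05), MCM4 by -0.13 ± 0.031 (adjusted p = 0.0042) and PCNA by -0.18 ± 0.049 (adjusted p = 0.014). The MCM4 and PCNA calls were each lost in 2 of the 4 fits that left out a replicate number, and that of MCM4 also with no low-count filter. FEN1 was at 147 to 164 CPM in C6, 166 to 171 CPM in F7 and 201 to 224 CPM in G6 with both agents, against 186 to 212, 190 to 204 and 234 to 261 CPM with topotecan, with no overlap in any clone.

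The remaining calls between the combination and topotecan were likewise not kept in every fit. RRM2 (log2 change -0.23 ± 0.069, adjusted p = 0.0334) lost its call without C6 topotecan replicate 4, F7 topotecan replicate 1, G6 topotecan replicate 1 or 2, C6 combination replicate 3 or F7 combination replicate 3, with adjusted p-values of up to 0.0661. CDC6 (-0.12 ± 0.039, adjusted p = 0.0438) lost its call on leaving out any of 15 single libraries, with the highest adjusted p of 0.0805 without F7 topotecan replicate 3. The others were from topotecan (C6 replicates 3 and 4, F7 replicate 1, G6 replicates 1, 2 and 4), from the combination (C6 replicate 2, F7 replicates 1, 3 and 4, G6 replicate 4), from DMSO (C6 replicate 4) and untreated (C6 replicates 3 and 4). RFC4 was the gene that was higher (0.22 ± 0.059, adjusted p = 0.0134). Its call was lost with no low-count filter and in 2 of the 4 fits that left out a replicate number. Without the low-detection libraries, which left replicate 3 alone in the C6 combination, MCM4 and RFC4 had log2 changes of -0.08 and 0.165. The count of 1 higher call became 3 without C6 topotecan replicate 4 and 2 without G6 topotecan replicate 1, C6 combination replicate 3 or G6 combination replicate 4.

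Between the combination and OL9-119 alone, 16 of the 49 genes differed, beside 12.7% of all genes tested: 14 were higher, among them ORC1 at a log2 change of 0.38 ± 0.071, CDC6 at 0.37 ± 0.039 and PCNA at 0.33 ± 0.049, and POLA1 (-0.33 ± 0.043) and PRIM2 (-0.47 ± 0.082) were lower. Without the low-detection libraries C6 kept a single combination library, so no count is given for that fit. The interaction of the 2 agents, the amount by which the combined change departs from the sum of the single changes, passed the test for 0 of the 49 genes and for 0.0316% of all genes. 5 members had an unadjusted p under 0.05, and DESeq2 likewise called 0. The largest of these was CDT1, which rose by a log2 change of 0.56 with topotecan, 0.48 with OL9-119 and 0.55 with both, an interaction of -0.50 ± 0.18 (adjusted p = 0.737). DMSO against no treatment gave 0 calls among the 49 genes by edgeR and by DESeq2, with no unadjusted p under 0.05 and a largest log2 change of 0.15 in size, and 0.0158% of all genes were called.

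Whether the clones responded differently was tested for each treatment as the spread of the change over C6, F7 and G6. For 0 of the 49 genes did the change with topotecan differ between clones by edgeR or DESeq2, and 0.137% of all genes passed, with 0 members at an unadjusted p under 0.05. For OL9-119 the count was likewise 0, with 0.0263% of all genes called and 1 member, MCM6, at an unadjusted p under 0.05. For the combination it was 0, with 0.169% of all genes called and 2 members, MCM6 and RPA2, at an unadjusted p under 0.05. A p that misses the threshold does not show that the clones responded alike. The median log2 change of the 49 genes with topotecan was 0.13 in C6, 0.18 in F7 and 0.16 in G6, and 34, 40 and 31 of the 49 genes had a change above 0. The summed level of the 49 genes was 8061 to 8363 CPM with topotecan against 7162 to 7761 CPM in DMSO in C6, 6658 to 6853 against 5938 to 6147 CPM in F7, and 7528 to 7794 against 6902 to 7254 CPM in G6. The groups did not overlap in any clone.

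The clones differed in many of the 49 genes in DMSO, and fewer were called between the untreated libraries. In DMSO, 27 of the 49 genes were higher in C6 than in F7, beside 20.4% of all genes tested, and 2 were lower, beside 19.2%, with a median log2 difference of 0.34 against -0.05 over all genes. 19 were higher in C6 than in G6, beside 11.6%, and 8 were lower, beside 12.8%. 2 were higher in F7 than in G6, beside 6.89%, and 16 were lower, beside 10.2%. Calls that held whichever single library was left out were 23 of the 29 between C6 and F7, 17 of the 27 between C6 and G6 and 10 of the 18 between F7 and G6. The 2 genes lower in C6 than in F7 were GINS1 and POLA2. Without C6 DMSO replicate 2 POLA2 was not called and the count was 1, and without any of 21 other libraries it was 4. These were untreated C6 replicates 2 and 4, from OL9-119 C6 replicates 2 and 3, all 4 of F7 and G6 replicate 4, from topotecan F7 replicates 2 and 4, and from the combination C6 replicates 1 and 3 and all 4 of F7 and of G6. ORC5 and RPA1 were the 2 genes higher in F7 than in G6, and ORC5 was not called without F7 DMSO replicate 3 or 4 or G6 DMSO replicate 2 or 4, with adjusted p-values of up to 0.104. The count was 1 without F7 DMSO replicate 3 or 4 or G6 DMSO replicate 2. With the prefix of the library names, L01, L02 or L03, as a term the higher and lower counts were 27 and 3, 20 and 8, and 2 and 16. Without the libraries of low detection, of which F7 had 0, they were 30 and 2, 18 and 7, and 2 and 20. With untreated libraries in place of DMSO they were 19 and 3, 13 and 6, and 2 and 10. The shares over all genes were not taken for that fit. ORC1, ORC2, CDC6, GMNN, CDC7, DBF4, PRIM2, RFC3, RPA3 and SLBP lost their higher call for C6 against F7 in it.

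TYMS, which makes thymidylate and is the target of fluoropyrimidines, differed most between clones. It was at 224, 245, 237 and 266 CPM in C6 DMSO, at 134.8, 123.5, 138.7 and 128.1 CPM in F7 DMSO and at 308, 291, 292 and 288 CPM in G6 DMSO, 3 ranges that did not overlap. The log2 difference was 0.89 ± 0.068 for C6 minus F7 (adjusted p = 3.7e-16) and -1.17 ± 0.068 for F7 minus G6 (adjusted p = 2.53e-20). Over all 5 treatments the F7 libraries ranged from 114 to 155 CPM. 39.2% of the exonic bases of TYMS are shared with ENOSF1 on the opposite strand, whose counts were 10.8% of those of TYMS. RRM1 had the same order, at 488, 499, 444 and 545 CPM in C6, 381, 350, 374 and 388 CPM in F7 and 740, 676, 664 and 536 CPM in G6, with a log2 difference of -0.81 ± 0.081 for F7 minus G6 (adjusted p = 2.8e-11).

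RPA1 had another order, being highest in C6. It was at 163, 157, 184 and 183 CPM in C6, 125.2, 129.1, 126.4 and 128.4 CPM in F7 and 92.7, 97.5, 95.0 and 91.3 CPM in G6, and the log2 difference was 0.87 ± 0.086 for C6 minus G6 (adjusted p = 8.37e-12). MCM5 was at 85.1, 85.54, 132.2 and 125.6 CPM in C6 and at 53.6, 53.3, 52.2 and 50.4 CPM in F7, a log2 difference of 1.04 ± 0.17 (adjusted p = 2.34e-06), the largest between these clones. PCNA was lower in C6 than in G6 by a log2 difference of -0.65 ± 0.086 (adjusted p = 3.09e-08), and GINS1 was lower in C6 than in F7 by -0.62 ± 0.11 (adjusted p = 8.42e-06). MCM3, MCM6, RFC2 and POLA1 were higher in C6 than in either other clone. So were ORC1, ORC3, CDC6, GMNN, MCM4, MCM5, CDC45, PRIM2, RFC3, RPA1, RPA3, LIG1 and RRM2. The 49 genes did not share 1 order of the clones.

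**Figure D4:**
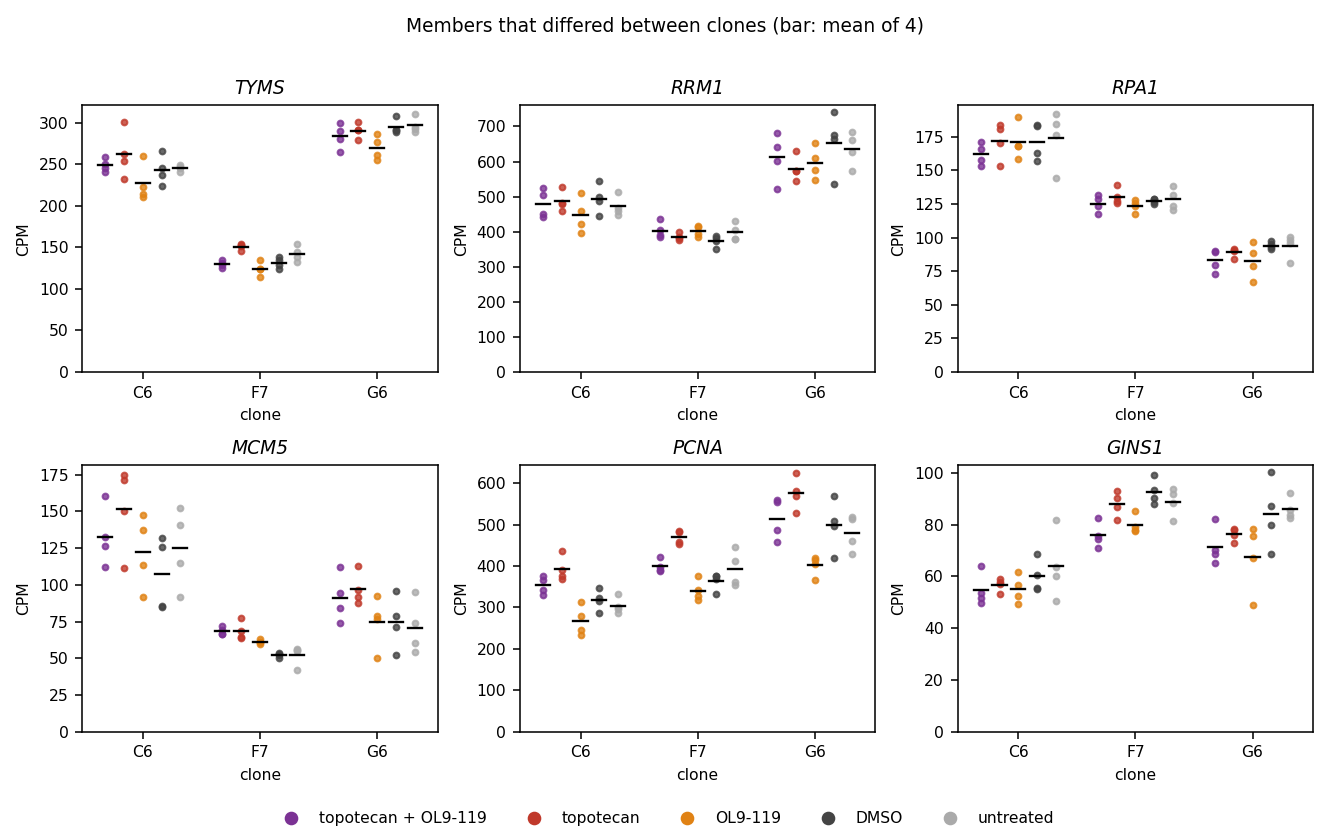
CPM (y axis, from 0) of 6 genes in every library by clone (x axis) and treatment (colours, with the combination, topotecan, OL9-119, DMSO and untreated from left to right); each point is 1 library and each bar the mean of 4. TYMS and RRM1 are lowest in F7, RPA1 is highest in C6 and lowest in G6, and MCM5 is spread most widely within C6.

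Some other factors of the fork rose with topotecan, and all mitosis genes examined fell. Of 39 other replication factors, 38 had enough counts to be tested, with a median log2 change of 0.08 with topotecan. With that agent 0 fell, beside 9.35% of all genes tested, and 4 rose, beside 5.99%. They were the polymerase epsilon subunit POLE3 (0.31 ± 0.046), CLSPN, which relays the checkpoint at stalled forks (0.39 ± 0.070), the chromatin assembly subunit CHAF1B (0.29 ± 0.051) and DTL, an adaptor for the destruction of CDT1 protein (0.21 ± 0.074). With OL9-119, DTL and TIMELESS rose, beside 4.47% of all genes tested, and PCLAF fell, beside 5.00%. With both agents 7 rose, beside 9.52%, and 1 fell, beside 11.7%. All 16 mitosis genes fell with both agents, beside the same 11.7%, with a median log2 change of -0.66. With topotecan all 16 fell, beside 9.35%, with a median of -0.65. Among them were AURKA (-0.85 ± 0.044) and PLK1 (-0.94 ± 0.074), kinases of the G2/M transition, and CCNB1 (-0.59 ± 0.040). With OL9-119 5 of the 16 fell, beside 5.00% of all genes tested, led by KIF20A (-0.35 ± 0.049). The lists were chosen with earlier results of these data known, so their direction is not independent evidence. The mean log2 CPM of the 16 genes was 6.54 to 6.68 with topotecan against 7.36 to 7.53 in DMSO in C6, 7.20 to 7.25 against 7.46 to 7.58 in F7, and 6.83 to 6.94 against 7.41 to 7.70 in G6. The mitosis genes thus moved with the treatment in the same libraries as the members, and their part in the members' changes was not tested.

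**Figure D5:**
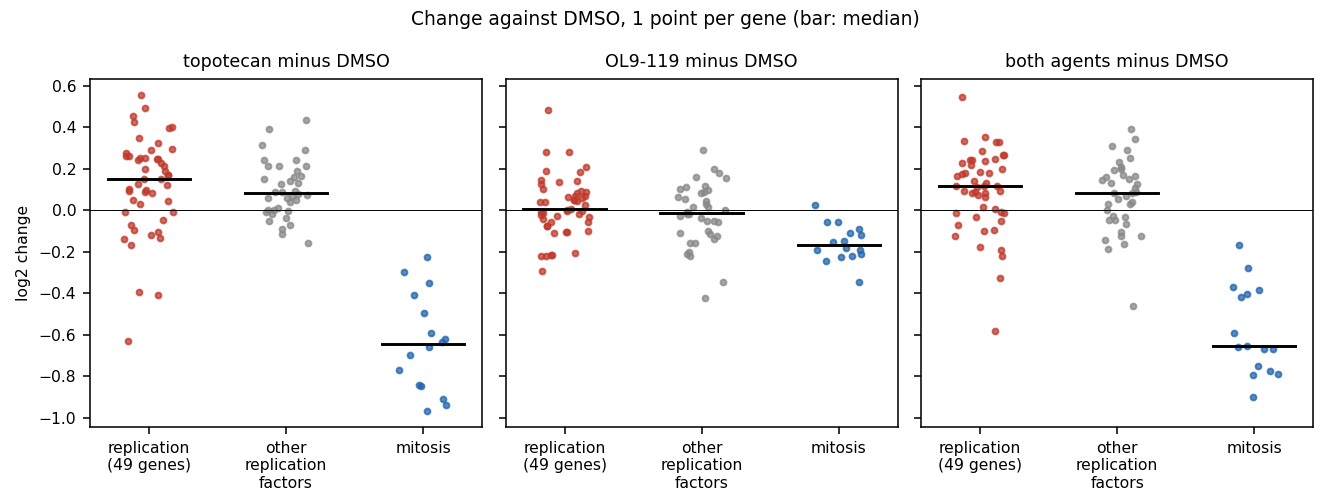
Log2 change against DMSO (y axis) for the 49 replication genes, the 38 other replication factors tested and the 16 mitosis genes with topotecan, OL9-119 and both agents; each point is 1 gene and each bar the median of the list. With topotecan the medians are 0.15, 0.08 and -0.65.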

How the data were processed

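RNA was extracted with Trizol, selected for poly(A) and made into libraries with a directional kit for MGI sequencers, per the labels. FastQC 0.11.9, Picard 2.26.6, STAR 2.7.8 and the build hg38 are named in the submitters' processing notes. The authors deposited whole-number read counts per Ensembl gene, not normalized; the counting tool, its annotation and its strand setting are not named in the sources used here. Symbols and positions came from GENCODE 29, which holds 58275 of the 58395 identifiers; the rest took 0.00524% of the counts.

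From these counts edgeR 4.0.16 (R 4.3.3) fitted all 60 libraries with 15 group means, TMM normalization and the quasi-likelihood F test (2-sided) on the 18985 genes passing filterByExpr, with Benjamini-Hochberg adjustment and a threshold of 0.05. A treatment contrast is the mean of the differences within the 3 clones. Levels are counts-per-million of TMM-scaled library size. Standard errors are on the log2 scale. The method was tested on data simulated with the same dispersion for every gene and no difference between clones or replicate numbers. That test does not cover the uneven spread of these libraries.

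Members past the threshold could be named; values per library were given for those with the smallest p in each comparison, and others named with values, such as UNG, TK1, MCM5 and CDT1, were chosen after their values were seen. Promoters shown are of CDC6, POLA1, PRIM2 and GINS3, which had the smallest p among members with a sequence. Those of ORC1 and UNG, next by p, were read and not printed. Those of the MCM2-7 genes with a sequence were added after values were seen. The members and lists were chosen with earlier results of these data known. Alternatives were RLE factors, DESeq2 1.42.0, no low-count filter, a replicate block, untreated in place of DMSO libraries for the clones, leaving out replicate numbers or single libraries, and, chosen after seeing the data, leaving out the 14 libraries of low detection and a library prefix term. Replicates differed by 2.31 to 59.3 times sampling noise (chi-square per degree of freedom, 90 pairs), so none was a copy. The labels call them biological replicates and do not mention separate cultures, so p-values measure the spread between these libraries, which may be technical. 1 marker gene is not reported here.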

Additional observations from a re-analysis of the deposited data

Results flagged for a closer look

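In each group of 4 libraries the levels of 18 genes, and the mean of the 49 genes, were searched for a library apart from the other 3. Dixon's criterion at the 95% level was used. Among the 18 were MCM3, ORC4 and LIG1, whose values by library are not printed in the sections above. 14 of 285 groups had one (4.91%), where chance gives about 1 in 20.

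CDC6 was at 138.5 CPM in G6 OL9-119 replicate 4 and at 152 to 154.7 CPM in the other 3 libraries. CDT1 was at 126.6 CPM in C6 combination replicate 3 and at 80.07 to 87.99 CPM in the others, which are all libraries of low detection. GINS3 was at 43.12 CPM in G6 topotecan replicate 3, below the 46.75 to 47.46 CPM of the others. MCM3 was at 415 CPM in C6 OL9-119 replicate 1, a library of low detection, below the others at 502 to 518.9 CPM. ORC4 was at 83.49 CPM in C6 DMSO replicate 2, a library of low detection, above the others at 61.12 to 64.21 CPM. TYMS was at 308.2 CPM in G6 DMSO replicate 1, also of low detection, above the others at 288.2 to 291.5 CPM.

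The other single genes were in F7. Untreated F7 replicate 4 stood apart for 3 genes: MCM5 at 41.75 CPM (others 54.87 to 56.29), LIG1 at 53.29 CPM (others 66.27 to 67.39) and POLA1 at 318 CPM (others 279.9 to 284.9). POLA1 was also at 301.6 CPM in F7 OL9-119 replicate 3 (others 277.3 to 281.4) and at 202.4 CPM in F7 topotecan replicate 4 (others 221.7 to 224.9). LIG1 was at 77.3 CPM in F7 topotecan replicate 2 (others 71.04 to 71.46). The mean log2 CPM of the 49 genes was 6.892 in C6 DMSO replicate 4 (others 6.78 to 6.794) and 6.482 in F7 DMSO replicate 2 (others 6.544 to 6.556).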

How the results depend on the processing

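Over the 150 calls of single genes, 10086 refits kept direction and call, 412 kept direction and lost the call, and 0 reversed. Many of these refits left out a library that was not part of the comparison, where the log2 change hardly moved. The totals therefore say little about how steady a call is. The called sets kept in every fit were 17 of 26 genes for topotecan, 2 of 7 for OL9-119, 14 of 20 for the combination and 2 of 7 for the combination against topotecan. The topotecan calls lost in some fit were CDT1, MCM2, MCM6, MCM7, CDC45, RFC5, RPA2, LIG1 and TK1. Without the low-detection libraries (chosen after seeing the data), 5 genes were lower with topotecan. With no low-count filter, OL9-119 gave 4 higher and 3 lower, the combination against topotecan 0 higher, the interaction 1 (CDT1, -0.51, adjusted p = 0.000388), C6 against F7 4 lower and F7 against G6 10 lower. RLE factors gave 4 lower for C6 against F7. DESeq2 gave 2 higher for the combination against topotecan and 4 lower for C6 against F7. Untreated in place of DMSO libraries gave 10 lower for F7 against G6. The cause of these changes was not tested.

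The replicate numbers were not taken to pair the libraries, since not every same-numbered pair had a correlation of deviations over 0.1. Over 120 pairs the median was 0.0425 (-0.287 to 0.443), beside -0.015 for other numbers. Of these pairs 45 were over 0.1 and 57 were best with their own number. A rule asked of every pair cannot show that the libraries are unpaired. In some groups of libraries the numbers went together. The correlation was 0.124 to 0.243 for replicate 1 and 0.21 to 0.443 for replicate 4 of G6, and 0.167 to 0.414 for replicate 3 of C6 (10 pairs each). The library names point the same way: within a clone, all 5 treatments of a replicate number share a prefix, often with consecutive numbers. The labels do not say what the prefix or the number stands for. The main test leaves such pairing out, and it may be present. With the replicate block, 28 genes were higher with topotecan (23 without it; GMNN, POLD1, POLD3 and SLBP among those added), 7 higher with OL9-119 (2), 5 lower with the combination (3), and 3 higher (1) and 11 lower (6) in the combination against topotecan.

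Leaving out a replicate number or 1 library changes the number of libraries and keeps the genes tested. It gave 17 to 28 higher for topotecan, and 1 to 4 higher and 2 to 6 lower for OL9-119. For the combination it gave 13 to 22 higher and 2 to 4 lower. It gave 0 to 3 higher and 2 to 7 lower for the combination against topotecan, and 10 to 19 for the combination against OL9-119. Between clones it gave 19 to 27 higher and 1 to 4 lower for C6 against F7, 11 to 19 higher and 6 to 8 lower for C6 against G6, and 1 to 2 higher and 8 to 17 lower for F7 against G6. Depth limits the least abundant members, with at least 83 counts in a library.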
